A study of Mus musculus with 6 samples.

Results

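The SLC25 family holds the carrier proteins that move metabolites across the mitochondrial inner membrane. Its numbered members were described here in lung group 2 innate lymphoid cells (ILC2s), tissue lymphocytes that answer the alarm cytokine IL-33 with type 2 cytokines. Members were the protein-coding rows of the deposited table whose symbol is Slc25a followed by a number, without Slc25a20, which gave 40 of 16588 genes. RNA was sequenced from 6 libraries of activated ILC2s, 3 of genotype C57BL/6, taken here as wild type (WT), and 3 of genotype Cnr2 KO, a knockout of the gene for the cannabinoid receptor CB2. Mice of both genotypes had received recombinant IL-33 (0.5 µg intranasally, 3 days), and ILC2s sorted from their lungs on day 4 were kept in culture for 18 h before 10 pg of RNA went into each library. The labels give no age or sex and do not say whether the knockout is restricted to a cell type. They do not say whether replicates came from separate animals, and p-values therefore speak only of the scatter among these 6 libraries, which may be technical. The tissue in the series title is adipose, but lung is the tissue on all 6 labels.

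Carriers of this family share a fold of repeated pairs of membrane helices and mostly work as exchangers, letting in one compound for another that leaves. They supply the matrix with ADP, phosphate, cofactors and amino acids and send out ATP, citrate and aspartate, so that respiration and biosynthesis in the cytosol stay connected. Activated lymphocytes depend on several of these exchanges, among them citrate export for lipid synthesis and the malate-aspartate shuttle for moving reducing equivalents.

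Total counts were 17867541 to 19399819 in 5 libraries and 129617689 in WT replicate 2. Cnr2 itself was counted in all 6 libraries and had a level of 3.69 ± 0.449 CPM (SD, n = 3) in the WT group and 7.49 ± 0.0627 CPM in the other (SD, n = 3), which is against the direction of the label. The labels do not say which part of the gene was deleted. The second group is therefore called the KO-labelled libraries throughout. CPM are counts scaled to library size, with edgeR's TMM factor for library composition. All 14 listed ILC2 markers were counted. In the KO-labelled libraries 10 were higher and 3 lower, beside 33.1% higher and 33.2% lower of all tested genes. Among the 10, Gata3 was 3.72-fold and Arg1 2.31-fold higher. The 3 lower ones were Il2ra (2.03-fold), Il13 (1.88-fold) and Areg (1.74-fold). Il5 was not called, at 5285 ± 274 and 5354 ± 461 CPM. Of the listed markers of other cells, those of T cells summed to 59.4 to 62.4 CPM across WT libraries and 109.7 to 116.6 CPM across KO-labelled ones, with 6 of 9 counted, and those of dendritic cells to 467.3 to 498.4 CPM and 27.3 to 34.3 CPM, with 5 of 5 counted. The dendritic sum was mostly Ccr7, at 467 ± 18.1 and 7.73 ± 0.891 CPM, whereas Xcr1, the other dendritic marker tested, was higher at 10.3 ± 1.498 and 23.3 ± 2.87 CPM (edgeR adjusted p = 8.03e-08). Among endothelial markers only Pecam1 was counted, at 105.9 to 114.3 and 39.3 to 40.3 CPM, while Cdh5, Kdr and Tek have no row. The T cell genes Cd4, Cd8a and Cd8b1 have none either. Of the 5 T cell markers tested, 4 were higher and 1 lower. The lower one was Trac, at 1.48 ± 0.282 and 0.464 ± 0.204 CPM (edgeR adjusted p = 1.28e-03). Epithelial markers summed to 12.6 to 27.0 and 45.7 to 51.6 CPM, B cell markers (Cd79b alone) to 16.1 to 17.2 and 25.1 to 26.3 CPM, NK cell markers to 56.7 to 77.7 and 46.1 to 59.8 CPM, and erythroid markers to 0.735 to 1.26 and 5.11 to 6.24 CPM. The epithelial sum followed Epcam, at 10.95 ± 0.442 and 46.4 ± 3.12 CPM, while Krt18 was lower at 3.43 ± 1.73 and 1.16 ± 0.384 CPM (edgeR adjusted p = 7.20e-04). Krt8 had 164, 247 and 0 counts in WT (8.61, 1.91 and 0 CPM) and 0 in each KO-labelled library. Cdh1 had 32, 79 and 1 counts in WT (1.68, 0.612 and 0.0528 CPM) against 1, 4 and 0 (0.0514, 0.214 and 0 CPM). Macrophage markers summed to at most 4.99 CPM and fibroblast markers to at most 5.93 CPM in any library. Mitochondrially encoded transcripts took 0.449 ± 0.0398% of counts in WT and 0.449 ± 0.113% in the KO-labelled libraries, and ribosomal protein genes 2.22 ± 0.0727% and 1.51 ± 0.1004%. The part of these differences in the carrier results was not tested.

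More carriers were lower than higher in the KO-labelled libraries. Of the 40 members, 36 passed the filter on low counts and were tested, 19 were lower, 8 were higher and 9 did not pass at an adjusted p under 0.05 (edgeR's quasi-likelihood test, adjusted over 12150 genes by Benjamini-Hochberg). Over all genes tested, 66.3% were called, 33.2% lower and 33.1% higher, against 75% of the tested carriers, 52.8% lower and 22.2% higher. Changes of at least 1.5-fold were found in 12 carriers, 9 lower and 3 higher, or 33.3% of those tested, where 32.6% of all tested genes changed as much. Every library of one group lay above every library of the other in 26 tested carriers, 72.2%, against 68.8% of all tested genes. The median log2 fold change of the tested carriers was -0.21, against 0.01 over all tested genes, and their range was -1.56 to 2.05. The summed level of the carriers was 3683 ± 46.6 CPM (SD, n = 3) in WT libraries and 2993 ± 67.3 CPM in KO-labelled ones. This sum is set mostly by a few abundant carriers and does not describe each member. Per kb of merged annotated exons, Slc25a3, Slc25a4 and Slc25a5 together made up 857 ± 17.4 of 1339 ± 18.8 CPM in WT. In KO-labelled libraries they made up 706 ± 29.3 of 1100 ± 31.2 CPM. In bulk RNA, fewer cells of a type and less RNA per cell cannot be told apart.

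**Figure D1:**
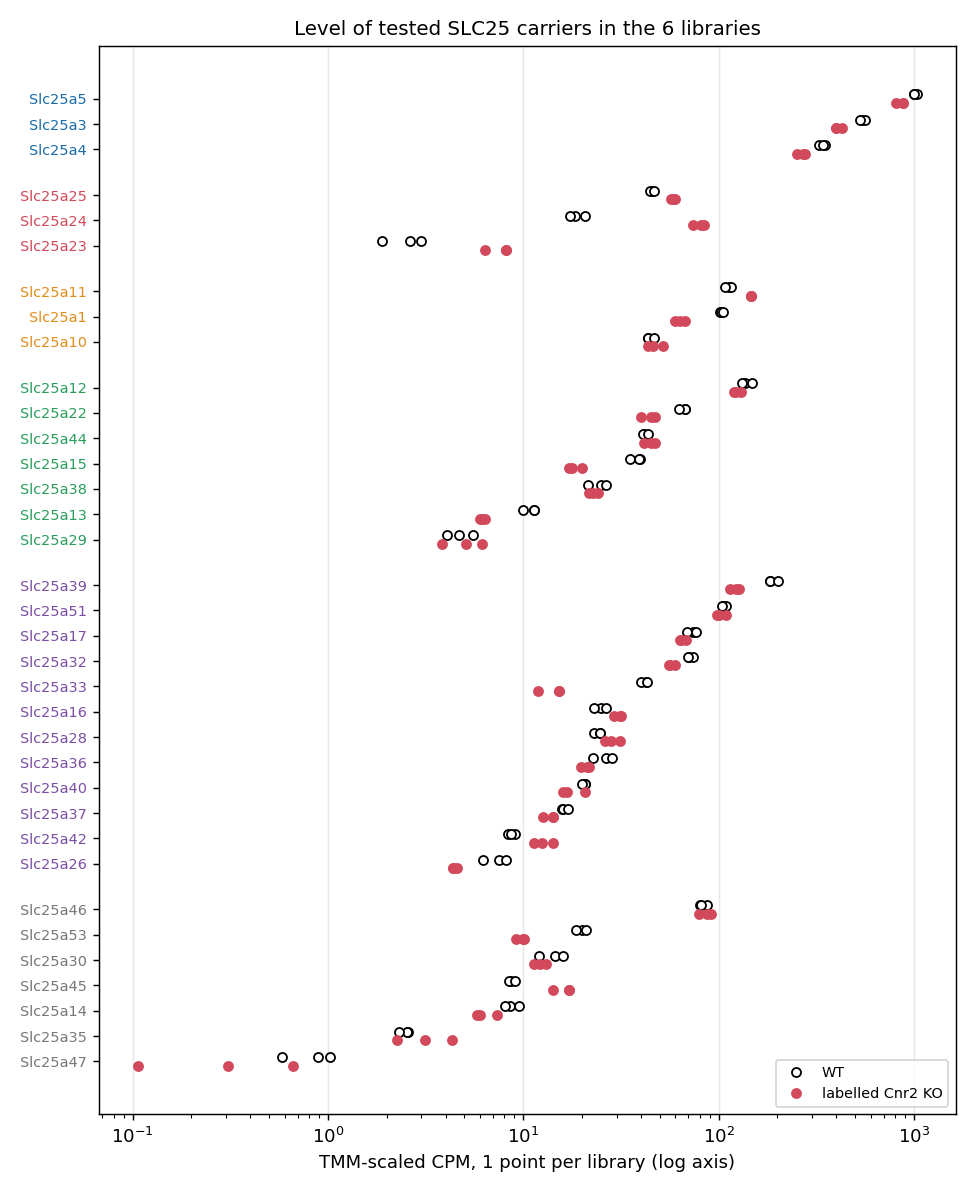
Level of 35 of the 36 tested carriers, as TMM-scaled CPM on a log axis, with 1 open circle per WT library and 1 filled circle per KO-labelled library, grouped by transported compound in the order of the text and coloured by group in the gene names. Slc25a24 moved from 17.3 to 20.7 CPM in WT to 73.5 to 84.2 CPM, while Slc25a33 moved the other way without overlap.

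Per length of exon, the adenine nucleotide carriers led the family. Slc25a5 stood at 614 ± 10.4 CPM per kb in WT and 519 ± 21.8 CPM per kb in the KO-labelled libraries (SD, n = 3 each, per kb of the merged annotated exons), and made up 45.5 to 46.0% of the summed level per kb in WT and 46.4 to 47.9% in the KO-labelled libraries. Slc25a4 followed at 145 ± 5.55 and 113 ± 5.83 CPM per kb. In WT, Slc25a3 stood at 97.8 ± 3.22 CPM per kb and Slc25a39 at 68.5 ± 3.78, above Slc25a11 at 52.8 ± 1.84 and Slc25a1 at 47.7 ± 0.765. In the KO-labelled libraries Slc25a3 stood at 73.6 ± 2.86 CPM per kb, Slc25a11 at 69.01 ± 0.308, Slc25a39 at 44.2 ± 2.37 and Slc25a1 at 29.4 ± 1.76. Slc25a11 therefore stood below Slc25a39 in WT and above it in the KO-labelled libraries.

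The sequences before the start sites were compared because carriers that moved in one direction may share letters there. For 30 of the 40 members, 28 of them tested, the RefSeq promoter table (GRCm38.p6, the assembly behind mm10) held the bases before the start, and the 250 bases before the first listed start were searched on both strands for 5 motifs. The E-box CACGTG, a palindrome bound by MYC, USF and clock factors, was found in 5 of 15 carriers called lower (33.33%) and 0 of 8 called higher. Among all tested genes with an entry it was found in 8.74%, in 9.46% of those called lower and in 8.03% of those called higher. The 5 carriers were Slc25a1, Slc25a13, Slc25a14, Slc25a33 and Slc25a36. The ETS motif CCGGAAG, found in 15.15% of all tested genes, was in 4 of the 28 tested carriers (14.29%), and the NRF1 motif (GCGC, 2 free bases, GCGC), found in 11.53%, was in 1 (3.57%). The CRE TGACGTCA was in 1 (3.57%, against 2.85%) and the ERR motif TCAAGGTCA in 0 (against 0.22%). On the same base of 28 tested carriers the E-box was in 5 (17.86%). Each of the 5 motifs was in 0 of the 8 carriers called higher, so that count does not set the E-box apart. Of the 15 carriers called lower, the ETS motif was in 3, NRF1 in 1, CRE in 1 and ERR in 0. Some windows held annotated exon, up to all 250 bases in Slc25a25, and exon was not left out of the search for any gene. The E-box of Slc25a33 and the ETS match of Slc25a4 did not lie wholly in the stretch without exon. A match is a run of letters and not a measured binding site, and 5 carriers is a small number.

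Shown are the stretches without annotated exon of 4 of the lower carriers that hold an E-box, then those of Slc25a24 and Slc25a23, the 2 carriers with the largest rise, which hold none of the 5 motifs. Capitals mark the motifs, and each runs 5′ to 3′ on the gene's strand. The regions are chr16:17928220-17928469 on the minus strand for Slc25a1, chr6:6217174-6217423 on the minus strand for Slc25a13, chr9:97111158-97111291 on the minus strand for Slc25a36, chrX:48623198-48623412 on the plus strand for Slc25a14, chr3:109122899-109123148 on the plus strand for Slc25a24 and chr17:57059864-57060113 on the minus strand for Slc25a23. In Slc25a36 the capitals mark a CRE in addition to the E-box.
Slc25a1: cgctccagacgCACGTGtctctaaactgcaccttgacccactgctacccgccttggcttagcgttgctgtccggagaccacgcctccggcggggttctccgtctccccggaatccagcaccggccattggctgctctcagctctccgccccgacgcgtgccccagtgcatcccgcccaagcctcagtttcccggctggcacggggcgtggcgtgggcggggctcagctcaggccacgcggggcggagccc
Slc25a13: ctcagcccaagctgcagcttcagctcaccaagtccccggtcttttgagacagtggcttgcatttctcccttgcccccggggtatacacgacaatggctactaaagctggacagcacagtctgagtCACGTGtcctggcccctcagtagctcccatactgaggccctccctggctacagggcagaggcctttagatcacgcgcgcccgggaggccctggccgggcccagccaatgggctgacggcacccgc
Slc25a36: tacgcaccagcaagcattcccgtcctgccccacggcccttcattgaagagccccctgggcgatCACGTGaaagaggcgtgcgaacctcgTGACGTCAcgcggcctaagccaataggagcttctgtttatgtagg
Slc25a14: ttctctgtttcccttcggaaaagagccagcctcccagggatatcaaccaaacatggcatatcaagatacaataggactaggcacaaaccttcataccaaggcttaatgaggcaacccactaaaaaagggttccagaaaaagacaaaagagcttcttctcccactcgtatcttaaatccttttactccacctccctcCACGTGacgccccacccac
Slc25a24: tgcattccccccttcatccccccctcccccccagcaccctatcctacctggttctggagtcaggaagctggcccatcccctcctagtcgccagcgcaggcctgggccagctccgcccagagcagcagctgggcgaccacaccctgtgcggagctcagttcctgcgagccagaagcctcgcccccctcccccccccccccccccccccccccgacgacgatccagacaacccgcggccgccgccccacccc
Slc25a23: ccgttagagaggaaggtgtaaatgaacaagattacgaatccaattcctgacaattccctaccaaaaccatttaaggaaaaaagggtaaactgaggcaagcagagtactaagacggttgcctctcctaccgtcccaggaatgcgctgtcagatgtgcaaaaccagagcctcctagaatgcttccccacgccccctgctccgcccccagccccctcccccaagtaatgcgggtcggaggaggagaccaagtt

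The 3 tested carriers of ATP, ADP and phosphate, which feed ATP synthase and send out its product, were lower, by less than 1.5-fold. Of all tested genes, 33.2% were lower. Slc25a5 (ENSMUSG00000016319.3, chromosome X, 36795651 to 36798807, GRCm38), the ADP/ATP exchanger ANT2 of dividing cells, stood at 1003, 1030.4 and 999 CPM across WT replicates and 813, 874 and 876 CPM across KO-labelled ones in the order of replicates 1, 2 and 3 (log2 fold change -0.24, SE 0.043, edgeR adjusted p = 6.85e-05). Slc25a4, the exchanger ANT1, stood at 326, 352 and 344 CPM across WT replicates and 250.2, 276 and 272 CPM across KO-labelled ones (log2 fold change -0.36, SE 0.049, edgeR adjusted p = 3.42e-06). Slc25a3, the phosphate carrier, stood at 541, 562 and 526 CPM across WT replicates and 398, 427 and 400.3 CPM across KO-labelled ones (log2 fold change -0.41, SE 0.046, edgeR adjusted p = 1.95e-07). In each of these carriers every WT library was above every KO-labelled library. The groups did not overlap, in either direction, in 68.8% of all tested genes. The fall of Slc25a5 was 1.18-fold, that of Slc25a4 1.28-fold and that of Slc25a3 1.33-fold. With an offset for GC content and length, the log2 fold change of Slc25a5 shrank to -0.11 (edgeR adjusted p = 0.0161). That of Slc25a4 was then -0.27 and that of Slc25a3 -0.46. Slc25a5 has processed pseudogenes at least 95% identical over at least 300 bases, of which Gm5529 and Gm5560 had 80.4 and 381.4 counts over the 6 libraries against 219072 for Slc25a5. Slc25a31, an ADP/ATP exchanger known from the testis, had 0, 4 and 6 counts in WT and 2, 1 and 3 in the KO-labelled libraries and was not tested.

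The ATP-Mg/phosphate carriers set the size of the adenine nucleotide pool in the matrix and carry calcium-binding domains on their outer side. They went the opposite way: all 3 that were tested were higher, beside 33.1% of all tested genes. Slc25a24 (ENSMUSG00000040322.10, chromosome 3, 109123149 to 109168457), whose promoter is printed above, stood at 18.5, 20.7 and 17.3 CPM across WT replicates and 80.9, 84.2 and 73.5 CPM across KO-labelled ones. It had the largest change of the tested carriers, 4.15-fold higher (log2 fold change 2.05, SE 0.080, edgeR adjusted p = 5.88e-14). Slc25a23 stood at 1.89, 2.996 and 2.64 CPM across WT replicates and 8.17, 6.36 and 8.15 CPM across KO-labelled ones, 2.88-fold higher but at a low level (log2 fold change 1.53, SE 0.20, edgeR adjusted p = 1.33e-06). Slc25a25 stood at 45.6, 44.7 and 46.6 CPM across WT replicates and 58.6, 60.1 and 57.1 CPM across KO-labelled ones, 1.29-fold higher (log2 fold change 0.36, SE 0.063, edgeR adjusted p = 4.84e-05). The groups did not overlap in any of the 3, nor did they in 68.8% of all tested genes. Slc25a41, the family's relative without the calcium-binding domain, had 0, 6 and 3 counts in WT and 2, 0 and 0 in the KO-labelled libraries, too few to test. In WT every library had more Slc25a25 than Slc25a24 in CPM, and every KO-labelled library had more Slc25a24. The exons of Slc25a25 share 379 bases with Naif1 on the opposite strand, which had 2768 counts in all against 10817 for Slc25a25 (log2 fold change of Naif1 0.18, edgeR adjusted p = 0.208), and those of Slc25a23 share 168 bases with an antisense gene, Gm17168.

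**Figure D2:**
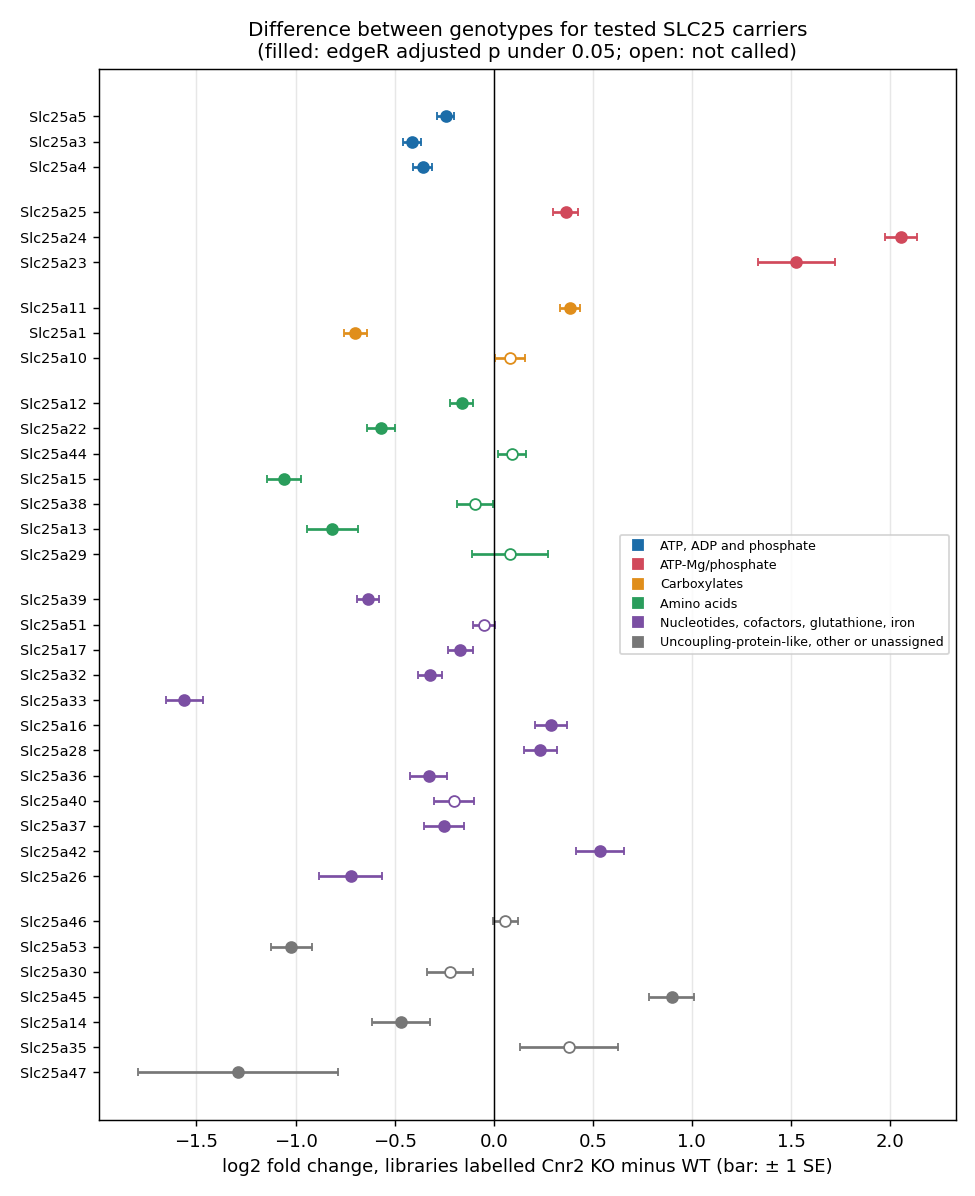
Log2 fold change of 35 of the 36 tested carriers, KO-labelled libraries minus WT, with a bar of 1 SE on each side, coloured by transported compound, where filled points passed edgeR's adjusted p under 0.05 and open points did not. The 3 ATP-Mg/phosphate carriers lie at 0.36 to 2.05 and the 3 tested ADP/ATP and phosphate carriers at -0.41 to -0.24.

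Among carriers of carboxylates, the citrate carrier fell and the oxoglutarate carrier rose. Slc25a1 (ENSMUSG00000003528.15, chromosome 16, 17925223 to 17928219), which exports citrate for the cytosolic supply of acetyl-CoA, stood at 102, 103 and 105 CPM across WT replicates and 63.1, 67.6 and 59.99 CPM across KO-labelled ones, 1.62-fold lower (log2 fold change -0.70, SE 0.058, edgeR adjusted p = 3.57e-09). Slc25a11, which exchanges 2-oxoglutarate for malate in the malate-aspartate shuttle, stood at 113, 115 and 108 CPM across WT replicates and 147, 146 and 146 CPM across KO-labelled ones, 1.30-fold higher (log2 fold change 0.38, SE 0.049, edgeR adjusted p = 1.40e-06). Neither overlapped between groups. The exons of Slc25a11 share 189 bases with Rnf167 on the opposite strand, which had 5245 counts against 27319 (log2 fold change of Rnf167 0.10, edgeR adjusted p = 0.312). Slc25a10, the dicarboxylate carrier for malate and succinate, stood at 43.4, 43.3 and 46.8 CPM across WT replicates and 43.3, 45.9 and 51.7 CPM across KO-labelled ones, and its groups overlapped (log2 fold change 0.08, SE 0.075, edgeR adjusted p = 0.357).

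Of 7 carriers of amino acids, 4 fell, 3 did not pass and 0 rose in edgeR, where 33.2% of all tested genes were lower and 33.1% higher. At an unadjusted p under 0.05, and in DESeq2, the number that rose was also 0. Slc25a12 and Slc25a13 exchange matrix aspartate for cytosolic glutamate and, like the ATP-Mg/phosphate carriers, respond to calcium. Slc25a13, also called citrin, stood at 11.3, 11.3 and 9.93 CPM across WT replicates and 6.16, 6.03 and 6.38 CPM across KO-labelled ones, 1.76-fold lower (log2 fold change -0.82, SE 0.13, edgeR adjusted p = 1.67e-05). Slc25a12, also called aralar, stood at 137, 132 and 149 CPM across WT replicates and 119, 130.3 and 123 CPM across KO-labelled ones, 1.12-fold lower (log2 fold change -0.16, SE 0.056, edgeR adjusted p = 0.0164). The fall of Slc25a12 did not pass without WT replicate 3 (log2 fold change -0.12, edgeR adjusted p = 0.0723), without KO-labelled replicate 1 (-0.13, edgeR adjusted p = 0.0749) or without KO-labelled replicate 3 (-0.15, edgeR adjusted p = 0.0526). Slc25a15, which exchanges ornithine for citrulline, stood at 35.03, 39.6 and 39.3 CPM across WT replicates and 17.2, 20.03 and 17.8 CPM across KO-labelled ones. That was 2.08-fold lower, without overlap (log2 fold change -1.06, SE 0.087, edgeR adjusted p = 2.77e-09). Slc25a22, a glutamate importer, was 1.48-fold lower at 65.6 ± 2.503 and 44.2 ± 3.69 CPM (log2 fold change -0.57, edgeR adjusted p = 7.79e-07). Slc25a38, which brings glycine in for haem synthesis, was at 24.3 ± 2.53 and 22.8 ± 1.17 CPM, Slc25a44, a carrier of branched-chain amino acids, at 41.9 ± 1.36 and 44.6 ± 2.96 CPM and Slc25a29, a carrier of basic amino acids, at 4.75 ± 0.726 and 5.03 ± 1.16 CPM. All 3 overlapped between groups (edgeR adjusted p = 0.373, 0.258 and 0.7198).

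Carriers of nucleotides, cofactors, glutathione and iron formed the largest group, with 13 of the 36 tested members. Several of the falls of at least 1.5-fold were among them. Slc25a33 (ENSMUSG00000028982.9, chromosome 4, 149744036 to 149774277), a pyrimidine nucleotide carrier, stood at 42.5, 40.02 and 42.9 CPM across WT replicates and 11.9, 15.2 and 15.3 CPM across KO-labelled ones, 2.95-fold lower (log2 fold change -1.56, SE 0.094, edgeR adjusted p = 3.26e-11). The highest KO-labelled library lay below the lowest WT library. Slc25a26, which imports the methyl donor S-adenosylmethionine, stood at 6.198, 7.53 and 8.19 CPM across WT replicates and 4.57, 4.38 and 4.38 CPM across KO-labelled ones, 1.65-fold lower (log2 fold change -0.72, SE 0.16, edgeR adjusted p = 5.44e-04). Its exons share 144 bases with Lrig1 on the opposite strand, which had 340.0 counts against 1496. The second pyrimidine nucleotide carrier, Slc25a36, was 1.26-fold lower at 25.9 ± 3.01 and 20.9 ± 0.963 CPM (log2 fold change -0.33, edgeR adjusted p = 4.94e-03, and 0.0563 without WT replicate 2).

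Further cofactor carriers moved less, and in both directions. Slc25a32, the folate and FAD carrier, was 1.251-fold lower at 71.2 ± 2.13 and 57.1 ± 2.09 CPM (log2 fold change -0.32, edgeR adjusted p = 1.15e-04). Slc25a17, the peroxisomal member of the family, was 1.12-fold lower at 72.96 ± 4.05 and 65.1 ± 2.498 CPM (log2 fold change -0.17, edgeR adjusted p = 0.0228). It did not pass without WT replicate 2 (edgeR adjusted p = 0.117), without KO-labelled replicate 1 or 2 (0.0661 and 0.0901), or with an offset for GC content and length (0.132). Slc25a42, a coenzyme A carrier, was 1.45-fold higher at 8.702 ± 0.3705 and 12.7 ± 1.46 CPM (log2 fold change 0.54, edgeR adjusted p = 7.02e-04), and its relative Slc25a16 was 1.22-fold higher at 24.9 ± 1.75 and 30.6 ± 1.42 CPM (log2 fold change 0.29, edgeR adjusted p = 4.53e-03). Slc25a51, the NAD+ importer, stood at 105, 109.6 and 104 CPM across WT replicates and 109, 100.3 and 98.4 CPM across KO-labelled ones. Its groups overlapped (log2 fold change -0.05, SE 0.055, edgeR adjusted p = 0.438).

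Carriers of glutathione and iron gave small changes apart from Slc25a39. Slc25a39, which imports glutathione into the matrix, stood at 182, 183 and 201 CPM across WT replicates and 115, 122 and 128 CPM across KO-labelled ones, 1.55-fold lower without overlap (log2 fold change -0.63, SE 0.055, edgeR adjusted p = 6.19e-09). Its relative Slc25a40 was at 20.4 ± 0.4898 and 17.8 ± 2.54 CPM (log2 fold change -0.20, edgeR adjusted p = 0.0894), and was called lower without KO-labelled replicate 2 (edgeR adjusted p = 0.0118) and with the offset for GC content and length (8.78e-03). The mitoferrins Slc25a37 and Slc25a28 bring in iron for haem and iron-sulphur clusters. Slc25a28 stood at 23.1, 24.6 and 24.6 CPM across WT replicates and 31.2, 26.1 and 28.00 CPM across KO-labelled ones, 1.18-fold higher (log2 fold change 0.24, SE 0.085, edgeR adjusted p = 0.0204). Without WT replicate 1, or without KO-labelled replicate 1, it did not pass (edgeR adjusted p = 0.0775 and 0.126). Slc25a37 stood at 15.7, 16.04 and 17.01 CPM across WT replicates and 14.1, 12.6 and 14.2 CPM across KO-labelled ones, 1.19-fold lower (log2 fold change -0.25, SE 0.10, edgeR adjusted p = 0.03501). It did not pass without WT replicate 2 or 3 (edgeR adjusted p = 0.0660 and 0.0845), without KO-labelled replicate 1 or 2 (0.0507 and 0.145) or in DESeq2 (0.0552). Stretches of Slc25a37 are identical over 382 bases to Gm16867, which had 735.7 counts against 3459.7, and stretches of Slc25a40 and Slc25a36 match a pseudogene each, which leaves the counts of these 3 carriers uncertain.

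Among the remaining 9 members, 1 rose, 3 fell, 3 did not pass and 2 were not tested, beside 33.1% higher and 33.2% lower of all tested genes. Slc25a45, a carrier with no substrate named here, stood at 8.67, 8.41 and 9.09 CPM across WT replicates and 17.2, 17.1 and 14.2 CPM across KO-labelled ones, 1.86-fold higher (log2 fold change 0.90, SE 0.11, edgeR adjusted p = 1.18e-06). Slc25a53, another such carrier, on chromosome X from 136981116 to 137038302, stood at 20.01, 18.6 and 21.03 CPM across WT replicates and 10.01, 9.13 and 10.04 CPM across KO-labelled ones, 2.03-fold lower (log2 fold change -1.02, SE 0.10, edgeR adjusted p = 5.68e-08). Neither overlapped between groups. Slc25a14, a relative of the uncoupling proteins, was 1.38-fold lower at 8.72 ± 0.773 and 6.39 ± 0.8604 CPM (log2 fold change -0.47, edgeR adjusted p = 8.01e-03, and 0.0637 without WT replicate 2). Slc25a30, also a relative of the uncoupling proteins, was at 14.2 ± 1.93 and 12.2 ± 0.899 CPM (log2 fold change -0.22, edgeR adjusted p = 0.106) and was called lower without WT replicate 1 (0.0285). Slc25a46, which sits in the outer membrane and bears on mitochondrial shape, was at 82.8 ± 3.66 and 86.1 ± 5.93 CPM (log2 fold change 0.06, edgeR adjusted p = 0.411).

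Slc25a35 was at 2.48 ± 0.145 and 3.25 ± 1.04 CPM (log2 fold change 0.38, edgeR adjusted p = 0.184) and was called higher without KO-labelled replicate 3 (0.0485). It shares 1151 exon bases with Rangrf on the opposite strand, which had 4963 counts against 605.4 for Slc25a35 and moved the other way (log2 fold change of Rangrf -2.39), so the counts of Slc25a35 are uncertain. Slc25a47 was called lower at low levels, 0.835 ± 0.2299 and 0.3601 ± 0.283 CPM, with overlapping groups (log2 fold change -1.29, edgeR adjusted p = 0.0310). It did not pass without WT replicate 1 or 2 (0.0543 and 0.186), without KO-labelled replicate 1 or 2 (0.103 and 0.172), in DESeq2 (0.0809) or with WT replicate 2 thinned to the depth of the others (0.0573), and without KO-labelled replicate 3 its log2 fold change was -2.05. Slc25a27 and Slc25a43 had at most 17 and 7 counts in a library and were not tested.

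In 8 of 9 pairs of related carriers the ratio of their levels did not overlap between the groups, a separation that the number of libraries cannot take past a threshold of 0.05. Among single genes tested, 68.8% did not overlap, and the share among ratios of other gene pairs was not computed, so nothing is read from the count of 8. The log2 ratio of the first to the second CPM was taken in each library for 9 pairs for a comparison by exact permutation (two-sided). With 3 against 3 libraries its smallest p is 0.1. The 8 pairs had an exact permutation p of 0.1 each (0.113 after Benjamini-Hochberg adjustment over 9 pairs), and Slc25a14 to Slc25a30, which overlapped, had 0.3. The largest shift was that of Slc25a24 to Slc25a25, -1.26 ± 0.16 in WT and 0.44 ± 0.066 in KO-labelled libraries (SD, n = 3 each), and the next that of Slc25a33 to Slc25a36, 0.68 ± 0.21 in WT and -0.56 ± 0.22 in KO-labelled libraries. In both the sign turned. The aspartate-glutamate carriers Slc25a12 and Slc25a13 stood at 3.62 ± 0.19 in WT and 4.22 ± 0.091 in KO-labelled libraries, the mitoferrins Slc25a28 and Slc25a37 at 0.55 ± 0.044 in WT and 1.03 ± 0.084 in KO-labelled libraries, and the glutathione carriers Slc25a39 and Slc25a40 at 3.18 ± 0.11 in WT and 2.75 ± 0.19 in KO-labelled libraries. The smallest difference among the non-overlapping pairs was that of the ADP/ATP exchangers Slc25a4 and Slc25a5, -1.57 ± 0.044 in WT and -1.68 ± 0.018 in KO-labelled libraries. The pairs Slc25a10 to Slc25a11 and Slc25a16 to Slc25a42 differed by -0.31 and -0.22.

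**Figure D3:**
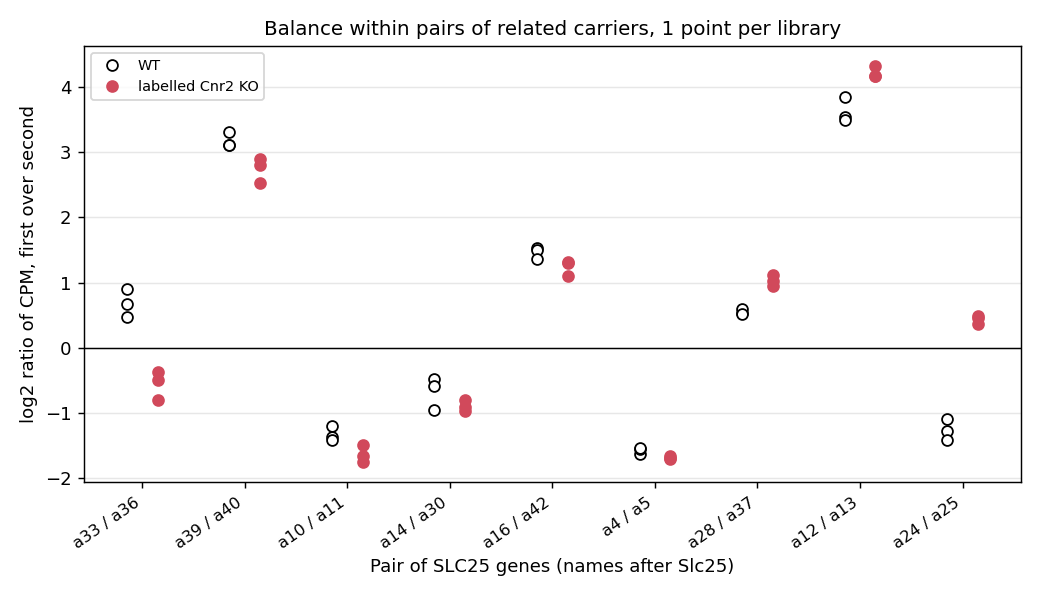
Log2 ratio of CPM within 9 pairs of related carriers, first over second gene, with 1 open circle per WT library and 1 filled circle per KO-labelled library, ordered by the difference between groups. The pair a24 / a25 rises from below 0 to above 0 and a33 / a36 falls from above 0 to below 0, while a14 / a30 overlaps.

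Family members that carry other names were counted apart. Of Ucp1, Ucp2, Ucp3, Mtch1 and Mtch2, 3 were counted and tested, 2 higher and 1 lower, beside 33.1% and 33.2% of all tested genes. Ucp2, the uncoupling protein of immune cells, stood at 777, 782 and 892 CPM across WT replicates and 1019, 960.4 and 1001 CPM across KO-labelled ones, 1.22-fold higher (log2 fold change 0.28, SE 0.051, edgeR adjusted p = 8.47e-05). Mtch1 and Mtch2, outer membrane proteins of the family that help insert other proteins, moved apart: Mtch1 was 1.46-fold higher at 168 ± 7.77 and 246 ± 1.53 CPM (log2 fold change 0.55, edgeR adjusted p = 6.95e-09) and Mtch2 1.28-fold lower at 198 ± 11.2 and 155 ± 6.72 CPM (log2 fold change -0.35, edgeR adjusted p = 1.03e-05).

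Carrier proteins are made in the cytosol, received at the surface by TOM70, escorted by small TIM chaperones and inserted into the inner membrane by the TIM22 complex. Of 10 genes of this route, 8 were lower, 0 higher (0 also at an unadjusted p under 0.05 in edgeR and in DESeq2) and 2 did not pass, with a median log2 fold change of -0.52. Timm10, a small chaperone, stood at 38.4, 36.7 and 31.3 CPM against 13.4, 13.9 and 12.9 CPM (WT against KO-labelled, log2 fold change -1.41, SE 0.094, edgeR adjusted p = 1.40e-10), and Timm8a1 at 150.3, 159 and 150.1 CPM against 62.5, 64.2 and 71.6 CPM (log2 fold change -1.21, SE 0.059, edgeR adjusted p = 1.22e-12). Tomm70a, the receptor, was 1.77-fold lower at 358 ± 14.6 and 202 ± 12.6 CPM (log2 fold change -0.82, edgeR adjusted p = 6.04e-11). Timm22, the insertion channel, was 1.15-fold lower at 46.02 ± 1.73 and 40.1 ± 1.57 CPM (log2 fold change -0.20, edgeR adjusted p = 0.0177). No value of the 4 overlapped between the groups' libraries, nor did those of 68.8% of all tested genes. The share of this list that was lower, 8 of 10, stands beside 33.2% of all tested genes.

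Other transporters of the mitochondrial membranes moved in both directions, with 9 of 24 tested higher and 9 lower, beside 33.1% and 33.2% of all tested genes, and a median log2 fold change of 0.03. Abcb8, an inner membrane ABC transporter, was 1.78-fold lower (log2 fold change -0.83, edgeR adjusted p = 1.25e-09) and Sfxn1, the serine importer, 1.57-fold lower at 200.3 ± 11.5 and 128 ± 10.1 CPM (log2 fold change -0.65, edgeR adjusted p = 1.32e-08), while Sfxn3 was 2.14-fold higher at 12.4 ± 0.694 and 26.9 ± 1.86 CPM (log2 fold change 1.10, edgeR adjusted p = 4.40e-09). The parts of the calcium uniporter were looked at after their values were seen, beside the calcium-responsive carriers. Mcu, the pore, was at 34.4, 33.7 and 32.02 CPM against 52.2, 52.9 and 52.3 CPM (log2 fold change 0.65, SE 0.067, edgeR adjusted p = 7.42e-08). Mcub, its inhibitory relative, was 1.88-fold, Micu2 1.29-fold and Smdt1 1.18-fold higher (edgeR adjusted p = 1.25e-07, 6.79e-06 and 4.31e-03). Micu3 was at 0.9401 ± 0.138 and 0.782 ± 0.124 CPM and did not pass (edgeR adjusted p = 0.525). The sodium-calcium exchanger Slc8b1, which lets calcium out, was 1.43-fold higher at 6.97 ± 0.348 and 10.03 ± 0.678 CPM (log2 fold change 0.51, edgeR adjusted p = 1.78e-03). In the same list Tmem65 was 1.74-fold lower (log2 fold change -0.80, edgeR adjusted p = 1.78e-04). Letm1 was 1.18-fold lower (log2 fold change -0.24, edgeR adjusted p = 1.88e-04). The higher genes picked here therefore do not stand for all ion transport genes of the list. The outer membrane channels Vdac1, Vdac2 and Vdac3 were 1.27-fold, 1.28-fold and 1.17-fold lower (edgeR adjusted p = 1.34e-05, 1.23e-06 and 2.57e-04), and the pyruvate carrier subunits Mpc1 and Mpc2 were at 98.97 ± 4.45 and 103 ± 10.2 CPM (edgeR adjusted p = 0.448) and 22.00 ± 1.78 and 26.7 ± 1.78 CPM (1.22-fold higher, edgeR adjusted p = 8.70e-03).

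Enzymes that work with the citrate and aspartate carriers were called lower in 7 and higher in 4 of 13 tested, where 33.2% of all tested genes were lower and 33.1% higher, with a median log2 fold change of -0.15. Of the 13, 2 changed at least 1.5-fold (15.4%, against 32.6% of all tested genes). Got1, the cytosolic aspartate aminotransferase of the malate-aspartate shuttle, was at 384, 387 and 410.4 CPM against 137, 149 and 136 CPM, 2.81-fold lower (log2 fold change -1.49, SE 0.051, edgeR adjusted p = 8.43e-15). Its mitochondrial partner Got2 was 1.37-fold lower at 418 ± 23.98 and 305 ± 7.66 CPM (log2 fold change -0.45, edgeR adjusted p = 1.27e-07), and Gpd2, of the glycerol phosphate shuttle, 1.41-fold lower at 93.1 ± 4.49 and 65.9 ± 1.93 CPM (log2 fold change -0.50, edgeR adjusted p = 4.16e-07). Mdh2 was 1.28-fold lower (log2 fold change -0.36, edgeR adjusted p = 4.60e-06), whereas Mdh1 was at 386 ± 7.33 and 397 ± 23.3 CPM (edgeR adjusted p = 0.463). Acly, which splits the citrate that Slc25a1 exports, was 1.11-fold lower at 579 ± 25.2 and 521 ± 6.36 CPM (log2 fold change -0.15, edgeR adjusted p = 5.34e-03), and citrate synthase, Cs, was at 535 ± 8.49 and 525 ± 11.5 CPM (edgeR adjusted p = 0.554).

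Genes of mitochondrial iron use, the destination of the mitoferrins' cargo, were lower in 11 and higher in 2 of 18 tested, beside 33.2% lower and 33.1% higher of all tested genes, with a median log2 fold change of -0.28. Hspa9, a matrix chaperone that takes part in iron-sulphur cluster transfer and in protein import, was 1.99-fold lower at 934 ± 5.57 and 470.2 ± 14.6 CPM (log2 fold change -0.99, edgeR adjusted p = 2.10e-13), and Tfrc, the transferrin receptor, 1.83-fold lower at 715 ± 28.5 and 391 ± 10.5 CPM (log2 fold change -0.87, edgeR adjusted p = 3.45e-12). Lyrm4, a partner of the cluster enzyme Nfs1, was at 37.9, 35.8 and 32.7 CPM against 7.96, 9.83 and 6.54 CPM, 4.37-fold lower (log2 fold change -2.13, SE 0.12, edgeR adjusted p = 7.22e-12). Fech, which puts iron into haem, was at 41.7 ± 2.48 and 44.3 ± 1.899 CPM (edgeR adjusted p = 0.326). In the list of mitochondrial biogenesis 8 of 14 tested genes were lower and 2 higher, beside the same shares of all genes, with a median log2 fold change of -0.28. The count of 2 was 1 without WT replicate 1 or 2 or KO-labelled replicate 1 or 2. Twnk, the mitochondrial DNA helicase, was 2.39-fold lower at 42.8 ± 2.47 and 17.98 ± 0.827 CPM (log2 fold change -1.26, edgeR adjusted p = 8.18e-11), Tomm20, an import receptor, 2.01-fold lower at 232 ± 12.8 and 116 ± 9.14 CPM (log2 fold change -1.01, edgeR adjusted p = 2.31e-11) and Tfb2m, a mitochondrial transcription factor, 1.90-fold lower at 41.8 ± 0.536 and 21.9 ± 1.75 CPM (log2 fold change -0.93, edgeR adjusted p = 4.65e-09). Beside these values stand the shares of counts from mitochondrially encoded genes given above, which overlapped between groups.

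**Figure D4:**
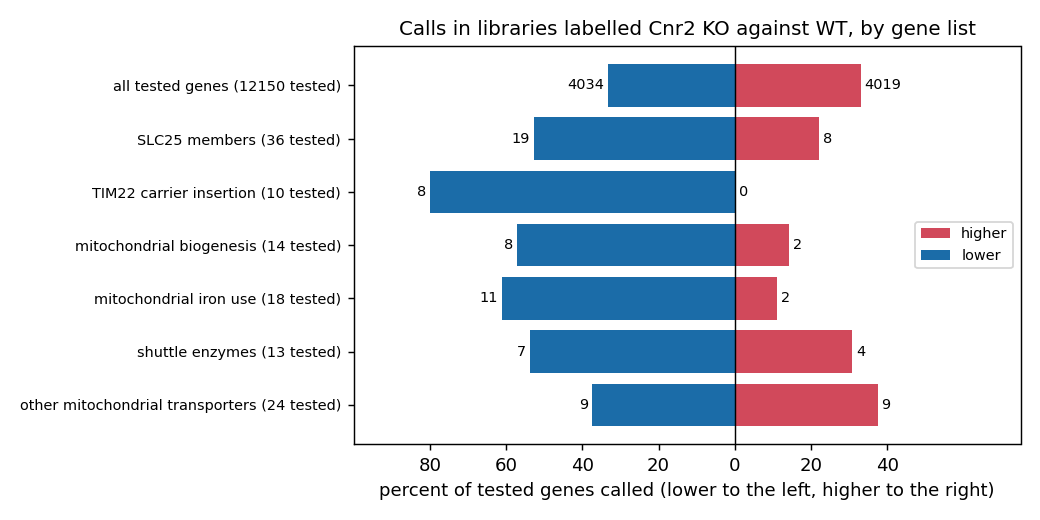
Percent of tested genes called lower (bars to the left) and higher (bars to the right) in KO-labelled libraries against WT, for all tested genes, the SLC25 carriers and 5 further gene lists, with the number of called genes at the end of each bar. The route that inserts carriers has 8 lower and 0 higher genes, and the other transporters have 9 of each.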

How the data were processed

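RNA was sequenced in 3 WT and 3 KO-labelled libraries of lung ILC2s. The deposited table holds expected counts, estimated per gene by the authors, that need not be whole. Per the submitters' processing notes STAR 2.7.8, Partek 10.0, DESeq2 and mm10 were used. How reads were counted, and with which strand option, is not given in the sources used here. Overlapping genes on opposite strands therefore cannot be separated. Counts were rounded and tested with edgeR 4.0.16 in R 4.3.3 (TMM, filterByExpr with a minimum count of 10 and a minimum total of 15, quasi-likelihood test, genotype as the only term, Benjamini-Hochberg adjustment over 12150 genes). The code was tested on simulated data. Total counts ran from 17867541 to 129617689, and the spread between replicates of the tested genes had a common coefficient of variation of 0.0615.

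Gene models were those of GENCODE M21 (GRCm38), to which 16200 of 16588 rows matched by symbol and chromosome. Promoters came from RefSeq. Of 47 protein-coding numbered family members annotated in GENCODE M21, 41 are in the table, and the others were not analysed here. Members and gene lists were chosen with earlier results of these data known. Members were given in full when called, at 5 CPM or more and changed at least 1.5-fold, or when in a listed core of 12 carriers. Of each further list the 3 genes of smallest p were named, and any other gene of these lists was chosen after its values were seen. Of the genes tested, 1 carrier and 1 gene of the further lists enter the counts but are not reported here by name. Alternatives were other scalings, filters, tools and thresholds, a replicate block, and leaving out each library.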

Additional observations from a re-analysis of the deposited data

How the results depend on the processing

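Between 7 and 9 carriers were called higher and 14 to 19 lower over the alternatives, which were other size factors, no and stricter filtering, DESeq2 (8 and 17), limma-voom, thinning of WT replicate 2, an offset for GC content and length, an adjusted p under 0.01 (7 and 15) and leaving out each library. The median over all tested genes moved by less than 0.1 on the log2 scale in each. With the replicate number as a block, 8 carriers were called higher and 19 lower. Deviations from the group mean correlated weakly between libraries sharing a number (r = 0.0779, 0.00979 and 0.0601). Between libraries of unlike number r ran from -0.0748 to 0.0154. Deviations from a mean of 3 libraries depend on each other, so these values cannot decide whether the numbers pair the libraries. In the mitochondrial biogenesis list, the 2 genes called higher became 1 with no filter, 0 with the GC and length offset, 1 at an adjusted p under 0.01, and 1 to 2 with a library left out. The log2 fold change of Slc25a29, 0.08 and not called, ranged from -0.085 to 0.24 with a library left out, and was negative without WT replicate 3 (-0.0026) and without KO-labelled replicate 3 (-0.085). The cause was not tested. Carriers below about 1 CPM, such as Slc25a47, are limited by depth.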
